A study of Homo sapiens with 27 samples.

Results

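PP242, which blocks the ATP pocket of the mTOR kinase, was compared with its solvent DMSO after 48 h of hypoxia in SK-N-BE(2)c cells, an established human neuroblastoma line with amplified MYCN. The comparison was taken by label and holds 8 of the 27 arrays of the series, 4 of cells given PP242 and 4 of cells given DMSO, both kept in hypoxia for 48 h. The series also holds the same pair of treatments at 24 h (7 arrays) and 72 h (8 arrays) and a 0 h control (4 arrays), whose label names neither DMSO nor hypoxia. Each Illumina bead array carried biotin-labelled cRNA of 1 sample. The oxygen level and the dose of PP242 are not given in the sources used here. The series rests on 1 cell line in culture, and its labels do not say whether the 4 samples of a group were separate cultures, so each p-value measures the spread among these samples, and that spread may be technical.

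The mTOR kinase works in both mTOR complex 1, which promotes translation, lipid and nucleotide synthesis and restrains autophagy, and mTOR complex 2, which phosphorylates AKT. Active AKT keeps FOXO transcription factors out of the nucleus, and both complexes feed back on the receptors and adaptors that signal to them. In hypoxia the HIF1A and EPAS1 (HIF-2 alpha) proteins escape degradation, pair with ARNT and bind short DNA elements near genes of glycolysis, angiogenesis and oxygen sensing. MYCN-amplified neuroblastoma cells arise from the sympathoadrenal lineage and divide fast, so genes of the cell cycle are highly active in them.

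Several of the gene groups described here have well-known sequence elements in their promoters, and stretches of RefSeq promoter windows (GRCh38.p14, 250 bases before to 50 bases after a gene's start) are shown for 7 genes because these genes stand for the groups that lay apart from DMSO at 48 h or at a neighbouring time. The first 3 are genes of the hypoxia response, and the capitals mark the core of the hypoxia response element, ACGTG, on either strand.
BHLHE40 (chr3:4979187-4979307, plus strand): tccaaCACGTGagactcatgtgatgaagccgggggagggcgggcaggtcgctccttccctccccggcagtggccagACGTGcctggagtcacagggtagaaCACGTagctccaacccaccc
ALDOC (chr17:28577116-28577145, minus strand): aagtgcccggCACGTGgtaaagggattgtg
DDIT4 (chr10:72273774-72273824, plus strand): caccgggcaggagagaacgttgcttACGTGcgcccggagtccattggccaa
In the next pair, of mitotic genes, the capitals mark TTTGAA, the letters of the cell cycle homology region, and CCAAT.
PLK1 (chr16:23678789-23678888, plus strand): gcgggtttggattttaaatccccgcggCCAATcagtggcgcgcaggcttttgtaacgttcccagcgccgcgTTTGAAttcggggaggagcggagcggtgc
PRC1 (chr15:90994536-90994635, minus strand): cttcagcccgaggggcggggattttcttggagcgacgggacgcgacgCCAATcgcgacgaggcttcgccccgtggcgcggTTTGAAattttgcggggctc
In E2F2, a gene of the entry into S phase, they mark TTTNNCGC, the letters of an E2F site. In EGR1, an immediate early gene, they mark CArG boxes, the element of serum response factor.
E2F2 (chr1:23531234-23531333, minus strand): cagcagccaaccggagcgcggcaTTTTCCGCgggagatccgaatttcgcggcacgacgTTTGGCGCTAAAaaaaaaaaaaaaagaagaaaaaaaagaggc
EGR1 (chr5:138465349-138465419, plus strand): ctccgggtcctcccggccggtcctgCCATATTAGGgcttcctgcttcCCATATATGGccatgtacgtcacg

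All motifs were searched on both strands. ACGTG was in 21.4% of all 35116 RefSeq windows, in 54.3% of the 35 windows of hypoxia genes and in 41.7% of the 48 windows of glycolysis genes. TTTGAA was in 15.2% of all windows, in 60% of the 55 windows of mitotic genes and in 0% of the 42 windows of DNA replication genes. TTTNNCGC was in 6.89% of all windows, in 57.1% of the replication windows and in 9.09% of the mitotic windows. These shares describe letters in the windows and say nothing of binding. CCAAT was in 34.6% of all windows, 70.9% of the mitotic and 61.9% of the replication windows. A CArG box was in 1.29% of all windows and 3.7% of the 27 windows of immediate early genes, that is in 1 window. The palindrome CACGTG, which always holds ACGTG and is also the E-box of MYC proteins, was in 7.26% of all windows and 25.7% of the hypoxia windows. In the 14517 windows of genes tested here, ACGTG was in 24.3%, TTTGAA in 11.3% and TTTNNCGC in 9.22%, near its mitotic share. CCAAT was in 34.9% of these windows, a CArG box in 1.18% and CACGTG in 8.9%. Windows were found for 27 of the 35 hypoxia genes, 24 of 25 glycolysis genes, 42 of 52 mitotic genes, 34 of 42 replication genes and 20 of 28 immediate early genes measured, and a gene can have several windows. TTTGAA overlapped CCAAT in 42 windows and TTTNNCGC overlapped CCAAT in 10 windows.

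The 8 arrays were alike in quality. Median intensities lay between 98 and 113, background modes between 92.38 and 105, and 20729 to 22451 of 48107 probes were above background. Correlations between arrays of 1 group lay between 0.971 and 0.9886 and those between the groups between 0.9573 and 0.9815. Of 13 neuroblastoma markers, 11 were measured, and all 11 were above background on every 48 h array, among them MYCN, PHOX2A, HAND2, GATA3, ISL1, TH, DDC and CHGA. Of 29 markers of glial, stromal, blood, endothelial and epithelial cells, 16 were measured. None of SOX10, PTPRC, CD3E, PECAM1, CDH5, VWF, HBA2 and CDH1 passed the filter on dim probes. The summed level of those 16 on the linear scale was 1546 to 1837 with DMSO, 810.6 to 950 with PP242 and 1263 to 1403 in the control, and 4 of them fell with PP242 (DCN, LUM, ACTA2 and PDGFRB), which are described with the stromal genes.

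Of 12637 genes tested with limma, 1291 (10.2%) differed between PP242 and DMSO at 48 h at an adjusted p under 0.05. PP242 gave 560 higher genes (4.43%) and 731 lower genes (5.78%), of which 58 and 137 changed at least 2-fold. The values of the 2 groups did not overlap for 1758 genes (13.9%). With arrays scaled to 1 median in place of quantile normalization, the median of all genes moved to -0.07 and the split became 236 higher and 967 lower. A fit with the sample number as a block, described with the processing, called 2506 genes, 1118 higher and 1388 lower. The counts of list members given below stand against these totals and shares of all 12637 genes. In extracts of whole cultures, fewer cells of a kind and less RNA per cell cannot be told apart.

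**Figure D1:**
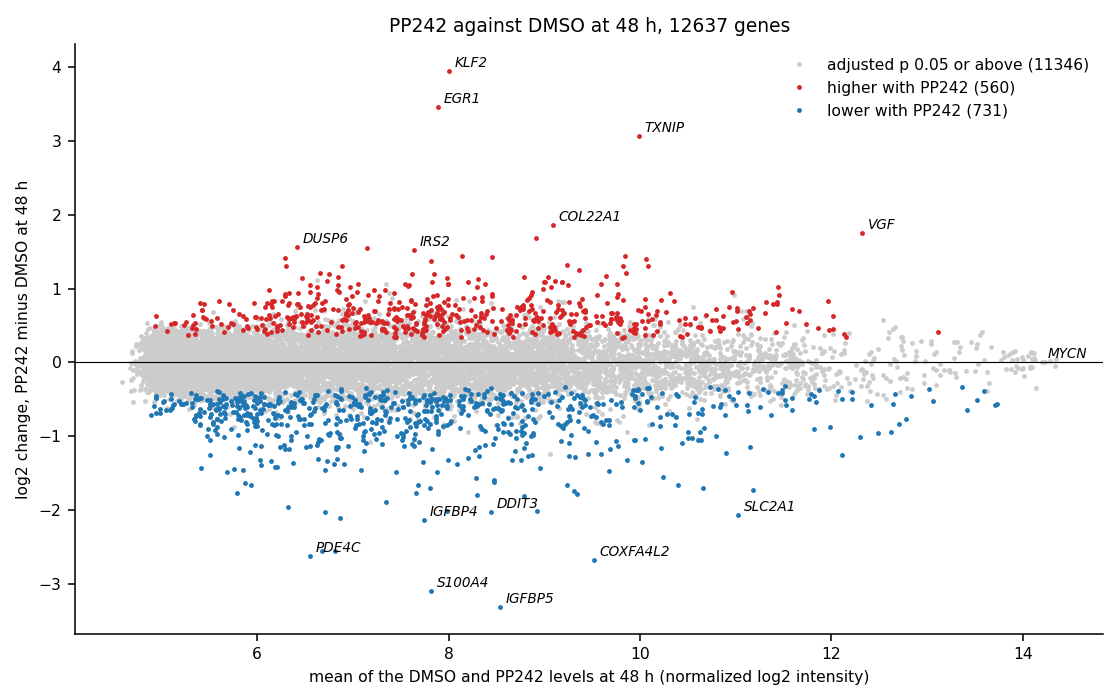
Each point is 1 of 12637 genes. The horizontal axis gives the mean of the DMSO and PP242 levels at 48 h (normalized log2 intensity) and the vertical axis the log2 change, PP242 minus DMSO. Red points (560) were higher and blue points (731) lower with PP242 at an adjusted p under 0.05, and grey points did not pass. KLF2, EGR1 and TXNIP lie above 3 and IGFBP5 and S100A4 below -3, and MYCN lies on the line of no change.

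The largest rises were in 3 regulators that respond to growth factor and nutrient signals. KLF2, a zinc finger factor of quiescence and a FOXO target, had log2 levels of 5.69, 6.22, 5.98 and 6.20 with DMSO and of 10.86, 9.38, 9.52 and 10.17 with PP242. All 4 PP242 samples lay far above all 4 DMSO samples. The difference was 3.96 on the log2 scale (SE 0.29, adjusted p = 4.43e-10), or 15.5-fold, and PP242 samples were also above the control, at 7.39. EGR1, an immediate early zinc finger factor, had levels of 6.20, 6.22, 6.32 and 5.89 with DMSO and 10.51, 9.26, 9.59 and 9.12 with PP242. The groups did not overlap and differed by 3.46 (SE 0.29, adjusted p = 3.54e-09), or 11-fold. TXNIP, which restrains glucose uptake and binds thioredoxin, had 7.83, 8.63, 8.01 and 9.33 with DMSO and 11.75, 11.33, 11.54 and 11.48 with PP242. The DMSO samples spread over a wider range than the PP242 samples, with no overlap, and the rise was 3.07 (SE 0.21, adjusted p = 1.62e-10), or 8.42-fold. ARRDC4, the arrestin-like paralog of TXNIP that shares its glucose-sensing promoter elements, rose by 1.42 (SE 0.16, adjusted p = 6.49e-07).

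The other genes among the 12 largest rises came from neurosecretion, matrix, cytoskeleton and signalling. COL22A1, a collagen of tissue junctions, rose by 1.87 (SE 0.27), from a mean of 8.15 to 10.02. VGF, the precursor of neuroendocrine peptides, had levels of 11.29, 11.82, 10.99 and 11.63 with DMSO and of 13.60, 13.10, 13.31 and 12.77 with PP242. All PP242 samples lay above all DMSO samples, and VGF rose by 1.76 (SE 0.20, adjusted p = 5.74e-07). TUBB2A, a beta tubulin of neurons, rose by 1.68, but its probe may also read near-identical tubulin genes. ADAMTS1, a secreted metalloprotease, rose by 1.55, NAV2, a cytoskeletal protein of neurite growth, by 1.44, and the kinase gene SBK1 by 1.44. With the mean of its probes the change of NAV2 was 0.90. RPL37, a protein of the large ribosomal subunit, rose by 1.44, and which of the many copies of ribosomal protein genes its probe reads is uncertain.

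**Figure D2:**
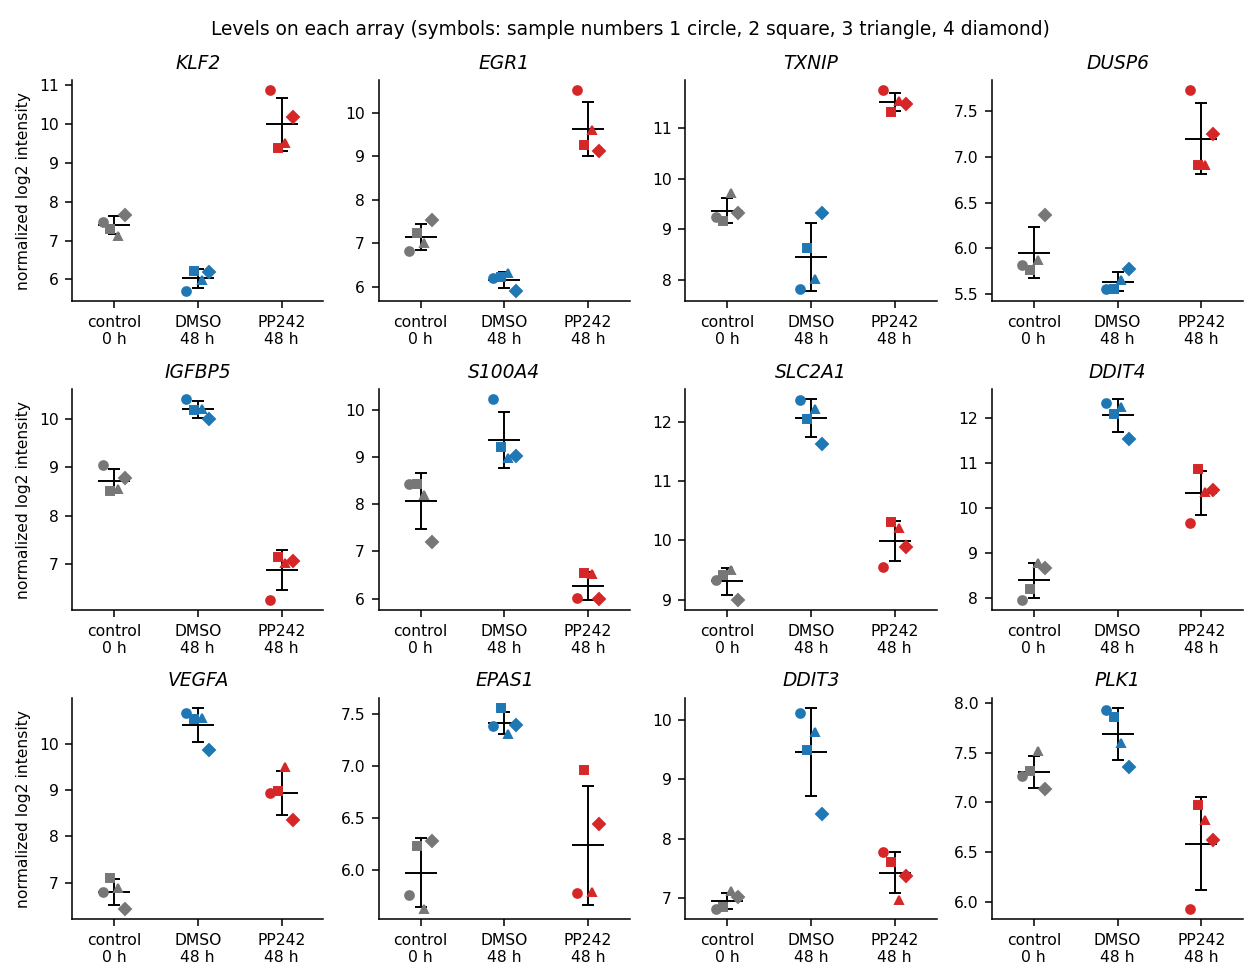
Normalized log2 intensity (vertical axes) of 12 genes on each array of the 0 h control, DMSO at 48 h and PP242 at 48 h. Symbols are arrays, with 1 shape per sample number, horizontal bars are group means and vertical lines ± 1 SD (n = 4). In each panel the PP242 symbols lie wholly above or below the DMSO symbols, as for KLF2 (9.38 to 10.86 against 5.69 to 6.22) and IGFBP5 (6.25 to 7.15 against 9.99 to 10.40).

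The largest falls were in IGFBP5 and S100A4. IGFBP5, a secreted protein that binds insulin-like growth factors, had levels of 10.40, 10.18, 10.20 and 9.99 with DMSO and 6.25, 7.15, 7.02 and 7.08 with PP242. The first PP242 sample was the lowest and every PP242 sample lay below every DMSO sample. It fell by 3.31 (SE 0.19, adjusted p = 7.85e-12), and the DMSO level was 9.95-fold the PP242 level. S100A4, a calcium-binding protein of motile cells, had 10.23, 9.22, 8.99 and 9.02 with DMSO against 6.01, 6.54, 6.51 and 5.99 with PP242. It fell by 3.10 (SE 0.25, adjusted p = 3.33e-09), again without overlap. IGFBP4, another binding protein of insulin-like growth factors, fell by 2.13 (SE 0.17, adjusted p = 1.77e-09), from 8.55 to 9.07 with DMSO to 6.37 to 6.89 with PP242. Thus both binding proteins named here were lower on all 4 PP242 arrays than on any DMSO array.

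HTR3A, a subunit of the serotonin-gated ion channel, had 8.14, 8.17, 7.84 and 8.22 with DMSO and 5.12, 5.85, 5.52 and 5.64 with PP242. No values overlapped, and HTR3A fell by 2.56 (SE 0.17, adjusted p = 1.16e-10), or by 1.18 with the mean of its probes and 1.55 with the authors' values. PDE4C, which breaks down cyclic AMP, fell by 2.63 (SE 0.21), to levels that were above background on only 2 of 4 PP242 arrays. NELL1, a secreted signalling protein, fell by 2.11 (SE 0.20). PDE4C was also low in the control (4.85) and was 3.01 higher with DMSO at 48 h than in the control, while HTR3A was at 7.53 in the control and lay 2.00 lower than that with PP242 (adjusted p = 4.64e-09).

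Genes of the hypoxia response were lower with PP242, and many of them remained above their control level. Of 35 measured genes of the hypoxia list, 22 fell and 0 rose, against 5.78% and 4.43% of all genes, and the median change was -0.83 beside -0.01 over all genes. Of the 25 genes of the glycolysis list, which shares SLC2A1 and PFKFB4 with it, 12 fell and 0 rose, with a median of -0.56. All 35 hypoxia genes and 23 of 25 glycolysis genes had a log2 change below 0.

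SLC2A1, the glucose transporter GLUT1, had levels of 12.37, 12.04, 12.21 and 11.62 with DMSO and 9.56, 10.30, 10.20 and 9.90 with PP242. No values overlapped, and it fell by 2.07 (SE 0.18, adjusted p = 6.68e-09). COXFA4L2 (formerly NDUFA4L2), a mitochondrial protein that lowers complex I activity in hypoxia, had 11.17, 10.86, 11.27 and 10.12 with DMSO and 8.0, 8.37, 9.12 and 7.22 with PP242. It fell by 2.68 (SE 0.46, adjusted p = 0.000236), with the fourth sample lowest in both groups. ADM, the vasodilator adrenomedullin, fell by 2.02 (SE 0.20, adjusted p = 9.26e-08). BHLHE40, a transcriptional repressor, fell by 1.79 (SE 0.17, adjusted p = 2.66e-08), from 8.85 to 9.44 down to 6.99 to 7.77. Its promoter stretch above holds ACGTG at 4 positions with the strands counted apart, since its palindrome CACGTG holds ACGTG on both strands. The adenylate kinase AK4 fell by 1.43. COX4I2, the hypoxic isoform of a cytochrome c oxidase subunit, fell by 0.88.

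Both the regulators of glycolytic flux and its common enzymes were among the 12 falls. PFKFB4 and PFKFB3, which make the activator of phosphofructokinase, fell by 1.78 (SE 0.18) and 1.74 (SE 0.28). With the mean of its probes the change of PFKFB3 was -0.92. The brain aldolase ALDOC fell by 1.65 (SE 0.20, adjusted p = 1.28e-06), the hexokinase HK2 by 1.09 (SE 0.18) and PGM1, which links glycogen to glycolysis, by 0.74. The other 6 falls in the list lay below 0 by 0.56 to 0.94 on the log2 scale.

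DDIT4 (REDD1) is both a HIF target and an inhibitor of mTOR complex 1. Its levels were 12.33, 12.09, 12.24 and 11.53 with DMSO and 9.67, 10.85, 10.36 and 10.40 with PP242. It fell by 1.73 (SE 0.23, adjusted p = 6.99e-06), the first PP242 sample being the lowest, and the PP242 mean of 10.32 remained above the control mean of 8.40. VEGFA, the main angiogenic growth factor, had 10.67, 10.53, 10.57 and 9.87 with DMSO and 8.93, 8.99, 9.49 and 8.35 with PP242. The groups did not overlap, and it fell by 1.47 (SE 0.21, adjusted p = 2.89e-05). Among the 14 angiogenic factors measured, 6 fell and 0 rose (1 rose with the block). PGF, a relative of VEGFA, fell by 1.32 and the ephrin EFNB2 by 1.27, neither of which differed between DMSO at 48 h and the control (0.13 and -0.07, adjusted p = 0.789 and 0.872). EFNA1, another ephrin, fell by 0.47 (SE 0.12), and its change was -0.31 with the mean of its probes.

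**Figure D3:**
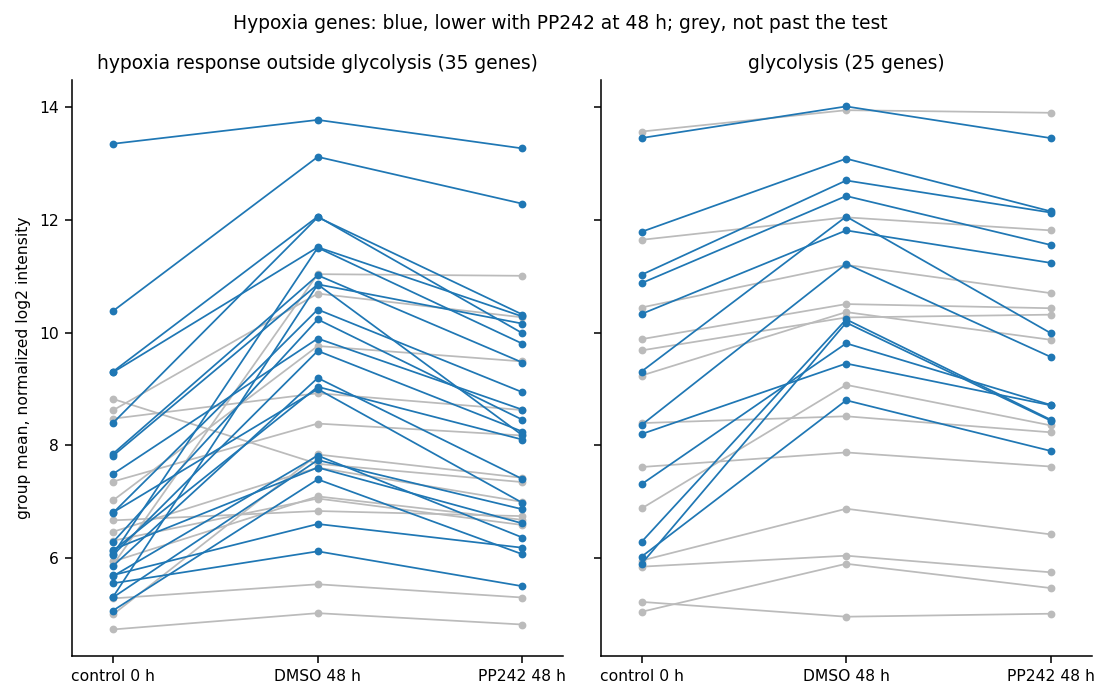
Group means (normalized log2 intensity, vertical axis, n = 4) of the 35 hypoxia genes (left) and the 25 glycolysis genes (right) in the 0 h control, DMSO at 48 h and PP242 at 48 h, with 1 line per gene. Blue lines are genes lower with PP242 than with DMSO (22 and 12), and grey lines did not pass. Most blue lines climb from the control to DMSO and come down part of the way with PP242, as for VEGFA with means of 6.80, 10.41 and 8.94.

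The same genes were set beside the control. The comparisons with the control share the 48 h arrays, so their values are given side by side and are not independent. DMSO at 48 h against the control called 1750 genes (13.8%) and PP242 at 48 h against the control 2453 genes (19.4%). For the 35 hypoxia genes, the median difference from the control was 2.33 with DMSO, where 31 were higher and 1 lower, and 1.00 with PP242, where 24 were higher and 1 lower. For the 25 glycolysis genes, it was 1.13 with 19 higher, and 0.55 with 14 higher. VEGFA was 3.61 above the control with DMSO and 2.14 above it with PP242 (adjusted p = 3.97e-08). SLC2A1 was 2.75 above with DMSO and 0.68 above with PP242 (adjusted p = 0.00647). ADM was 2.19 above with DMSO and 0.17 above with PP242, a difference from the control that missed the threshold (adjusted p = 0.648).

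Of the HIF subunit genes, EPAS1 fell, while HIF1A and ARNT did not pass the test. EPAS1, which encodes HIF-2 alpha, had levels of 7.39, 7.56, 7.31 and 7.40 with DMSO and 5.78, 6.97, 5.79 and 6.44 with PP242. The PP242 samples spread widely but all lay below the DMSO samples, and EPAS1 fell by 1.17 (SE 0.28, adjusted p = 0.00563). EPAS1 changed by -0.69 with the authors' values and by -0.71 with no background correction. Its PP242 mean of 6.24 was near the control mean of 5.98. HIF1A had 8.21, 8.03, 8.40 and 8.83 with DMSO and 9.06, 8.55, 8.72 and 9.36 with PP242. These groups overlapped, and the difference of 0.55 (SE 0.21) gave an adjusted p of 0.0973, of 0.00466 in the blocked fit, of 0.047 without the second PP242 sample and of 0.0374 without the fourth DMSO sample. ARNT, their partner, differed by -0.01 (adjusted p = 0.973). CITED2, a HIF target that competes with HIF for its coactivators, fell by 0.72 (SE 0.14, adjusted p = 0.000847). Its change was -0.32 with the authors' values and -0.33 with no background correction. EGLN1, the oxygen sensor that marks HIF subunits for degradation, differed by -0.61 (adjusted p = 0.148, 0.00191 with the block). In all, 2 of 11 measured HIF subunits and regulators fell and 0 rose (3 and 1 with the block).

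Few genes of the mTOR pathway itself passed the test. Of 44 measured, 1 rose (ULK1) and 1 fell (DDIT4), and with the block 4 rose and 3 fell. ULK1, the kinase that starts autophagy, had levels of 8.78, 8.75, 8.86 and 9.07 with DMSO and 9.40, 9.31, 9.60 and 9.83 with PP242. The groups did not overlap, and ULK1 rose by 0.67 (SE 0.19, adjusted p = 0.0177), a call that was lost without the fourth PP242 sample (0.0738), the first DMSO sample (0.0513) or the second DMSO sample (0.055). MTOR differed by 0.20 (adjusted p = 0.651) and RPTOR, the scaffold of complex 1, by -0.22 (adjusted p = 0.559). RICTOR, the scaffold of complex 2, was not above background on any 48 h array. EIF4EBP1, a translational repressor that mTOR complex 1 phosphorylates, differed by -0.34 (SE 0.12, adjusted p = 0.0587). It passed with the block (0.035) and under 8 of the other alternatives, at adjusted p-values down to 0.00819 with median scaling.

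MYCN was at 14.27, 14.26, 14.01 and 14.24 with DMSO and 14.38, 14.24, 14.28 and 13.91 with PP242. The groups overlapped and differed by 0.01 (SE 0.17, adjusted p = 0.982). These levels lie near the brightest signals of the 48 h arrays, whose highest intensities were 19528 to 25918 on the linear scale. Whether such bright signals were compressed was not tested, so a change in MYCN RNA may have been missed. Of 37 MYC targets and ribosome biogenesis genes, 1 rose and 0 fell (3 rose with the block), with a median of 0.10 that became -0.01 with median scaling.

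FOXO targets and feedback genes of receptor signalling went both ways. Of 32 measured, 8 rose (25%) and 9 fell (28.1%), with a median of -0.07. Beside KLF2, TXNIP and ARRDC4, the risers were KLF6, a growth-restraining zinc finger factor (1.22, SE 0.14), IRS2, the adaptor of insulin receptors, and 3 other genes. IRS2 had 7.04, 7.39, 6.41 and 6.66 with DMSO and 8.97, 8.63, 8.03 and 8.0 with PP242. It rose by 1.53 (SE 0.24, adjusted p = 8.77e-05) with no overlap. Beside IGFBP5, the fallers included the growth factor receptor genes EGFR, which fell by 1.00 (SE 0.14, adjusted p = 1.2e-05), and PDGFRB, which fell by 1.16, and CDKN1B, the cyclin-dependent kinase inhibitor p27, which fell by 0.60 (SE 0.14). The call of CDKN1B was lost when only the 8 arrays of 48 h were fitted (adjusted p = 0.0508).

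Immediate early genes and feedback inhibitors of the ERK kinases rose more often than they fell. Of 28 measured, 13 rose (46.4%) and 2 fell, with a median of 0.40, and the number of risers was 8 without the second PP242 or the third DMSO sample and 7 with median scaling. DUSP6, the phosphatase that acts on ERK in the cytoplasm, had 5.56, 5.55, 5.65 and 5.78 with DMSO and 7.73, 6.91, 6.91 and 7.25 with PP242. It rose by 1.56 (SE 0.25, adjusted p = 8.39e-05) with no overlap. DUSP5, its nuclear relative, rose by 1.16, the first PP242 sample being the highest at 8.34. ETV4, an ETS factor induced by ERK, rose by 1.20 (SE 0.21), and SPRY4, a Sprouty inhibitor of receptor signalling, by 0.87 (SE 0.16). With the mean of its probes the change of SPRY4 was 0.39. JUN, a subunit of AP-1, rose by 0.83 (adjusted p = 0.00269), a call that was lost with median scaling (adjusted p = 0.0593). ATF3, a stress-induced partner of JUN, rose by 0.72 (SE 0.21, adjusted p = 0.0276), a call that was lost without the second (0.13) or the fourth (0.0547) PP242 sample, without the third (0.118) or the fourth (0.0768) DMSO sample, with median scaling (0.0922) and with only the 8 arrays of 48 h (0.104). NPAS4, an activity-dependent factor of neurons, went the other way and fell by 1.37 (SE 0.33, adjusted p = 0.0069), and 1 other member of the list fell.

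**Figure D4:**
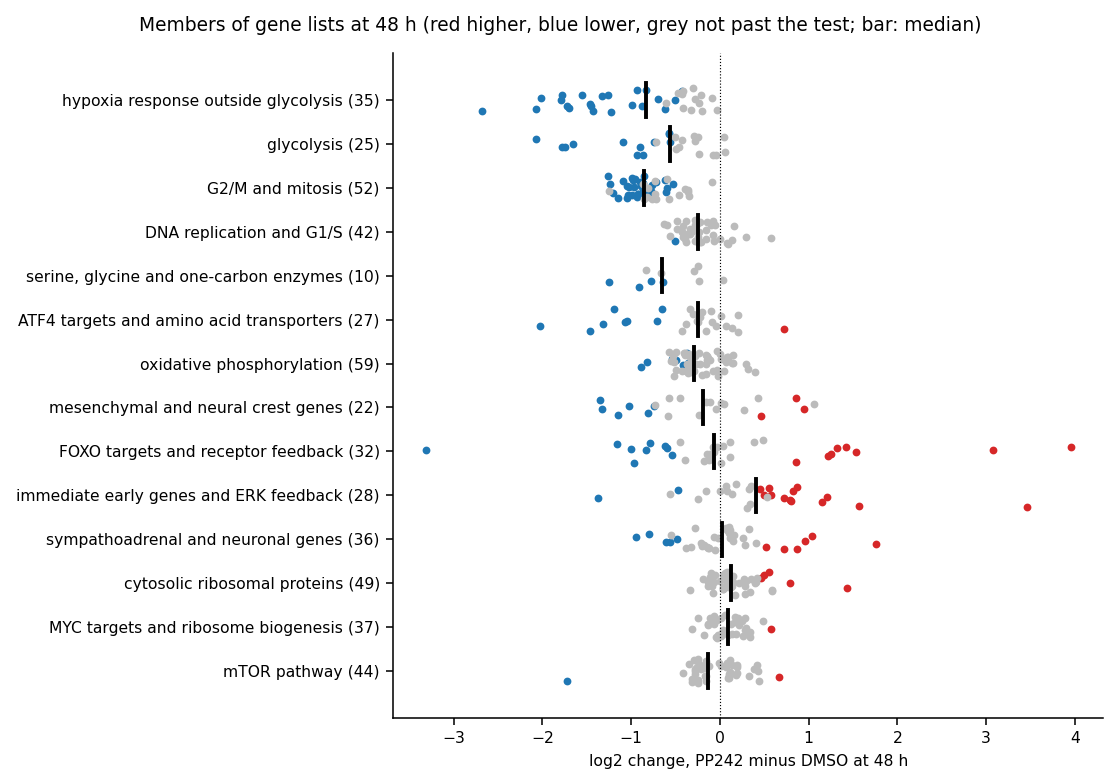
Log2 change at 48 h, PP242 minus DMSO (horizontal axis), of each measured member of 14 gene lists (rows, with the number measured). Red points were higher and blue points lower at an adjusted p under 0.05, grey points did not pass, and the bar is the median. The bars of the hypoxia list (-0.83) and the mitotic list (-0.85) lie farthest to the left and that of immediate early genes (0.40) farthest to the right.

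Mitotic genes were lower with PP242 as a group. Of 52 measured genes of G2 phase and mitosis, 35 fell (67.3%) and 0 rose, with a median of -0.85, and all 52 had a log2 change below 0. The number of falls was 17 without the first PP242 sample, which had the lowest level of each of the 6 mitotic genes described next. PLK1, a kinase of mitotic entry whose stretch above holds TTTGAA, had levels of 7.93, 7.86, 7.59 and 7.36 with DMSO and 5.93, 6.98, 6.82 and 6.62 with PP242. No values overlapped, and it fell by 1.10 (SE 0.18, adjusted p = 0.000189). AURKA, the centrosomal Aurora kinase, had 9.98, 10.23, 9.88 and 10.20 with DMSO and 8.07, 9.29, 9.17 and 8.80 with PP242, a fall of 1.24 (SE 0.21, adjusted p = 0.000261). NEK2, a kinase of centrosome separation, fell by 1.26, PRC1, which bundles the microtubules of the midzone, by 1.02, CCNB1, the cyclin of mitotic entry, by 0.96, and the kinesin gene KIF2C by 0.95. These 6 genes thus kept their groups apart, with falls between 0.95 and 1.26.

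Few genes of DNA replication passed the test at 48 h. Of 42 measured, 1 fell, RFC4, a subunit of the clamp loader, and 0 rose, with a median of -0.25, and 5 fell and 1 rose with the block. The median was -0.11 without the first PP242 sample and -0.39 with median scaling. RFC4 fell by 0.51 (adjusted p = 0.0342), with overlapping groups, and its call was lost in 5 of the 8 fits that left out 1 sample, with adjusted p-values up to 0.133. FEN1, the flap nuclease, had 8.87, 9.55, 8.95 and 9.93 with DMSO and 8.32, 9.64, 9.63 and 9.40 with PP242. The groups overlapped and differed by -0.08 (SE 0.27, adjusted p = 0.915). PCNA, the sliding clamp, differed by -0.28 (adjusted p = 0.753), MCM10, of origin firing, by -0.31 (adjusted p = 0.55) and E2F2 by -0.42 (adjusted p = 0.433). TK1, the thymidine kinase of S phase, differed by -0.76 (adjusted p = 0.0778, but 0.0143 with the block, 0.0445 with median scaling and 0.0131 without the second PP242 sample). Replication genes were already below the control with DMSO at 48 h (25 of 42 lower, median -0.70) and with PP242 (33 of 42 lower, median -0.89), whereas 3 of 52 mitotic genes were below it with DMSO (median -0.18) and 47 with PP242 (median -0.99). Of 19 genes of homologous recombination and the Fanconi pathway, 3 fell (7 with the block), with FANCG down by 0.69.

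The amino acid response was lower in part. Of 27 measured ATF4 targets and amino acid transporters, 8 fell (29.6%) and 1 rose (ATF3), with a median of -0.25. DDIT3 (CHOP), a stress-induced transcription factor, had 10.12, 9.50, 9.79 and 8.41 with DMSO and 7.77, 7.60, 6.97 and 7.37 with PP242. The fourth DMSO sample was the lowest of its group but still above every PP242 sample, and DDIT3 fell by 2.02 (SE 0.24, adjusted p = 1.88e-06). TRIB3, a pseudokinase that binds AKT, fell by 1.32 (SE 0.23), ATF5 by 1.19 (SE 0.28), SLC3A2, the heavy chain of amino acid exchangers, by 1.07 (SE 0.17), asparagine synthetase ASNS by 1.04 (SE 0.20) and CEBPB, a partner of ATF4, by 0.70. In ATF5, ASNS and CEBPB the lowest DMSO value lay below the highest PP242 value. Of 10 enzymes of serine, glycine and one-carbon metabolism, 4 fell and 0 rose. They included PHGDH, the first enzyme of serine synthesis, which fell by 1.25 (SE 0.20, adjusted p = 0.000114), and the mitochondrial enzymes SHMT2 and MTHFD2, which fell by 0.91 and 0.64. Of 19 aminoacyl-tRNA synthetases, 2 fell, with AARS1 down by 0.71 (SE 0.12), and with the block 5 fell and 1 rose. Of 18 genes of the unfolded protein response, 0 passed, while 1 rose and 3 fell with the block.

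Most translation genes did not pass the test. Risers made up 10.2% of cytosolic ribosomal protein genes, 7.89% of translation factors and 3.08% of mitochondrial ribosomal protein genes, against 4.43% of all genes. With the block, 1118 of all 12637 genes rose. Of 49 cytosolic ribosomal protein genes, 5 rose and 0 fell, with 13 risers under the block, 9 to 12 with another offset, no background correction, a trend in the prior variance or the authors' normalized values, and 3 with median scaling or without 1 of 4 samples (the first or the fourth PP242 and the second or the fourth DMSO sample). RPL22 rose by 0.80 (SE 0.14), from 10.75 to 11.28 up to 11.66 to 11.95. Of 38 translation factors, 3 rose and 0 fell (12 and 3 with the block), with EIF3D, a subunit of the initiation factor eIF3, up by 0.82. Of 65 mitochondrial ribosomal protein genes, 2 rose and 1 fell, MRPL14, by 0.69 (5 and 15 with the block). Of 59 genes of oxidative phosphorylation, 8 fell and 0 rose, with a median of -0.29. That number was 16 with the block, under which 2 also rose, 3 to 5 with median scaling, with no filter on dim probes or with only the 8 arrays, and 3 or 4 without the first, the third or the fourth PP242 sample or the first or the second DMSO sample.

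Lipid genes were lower in a few places. SREBF1, the master regulator of lipid synthesis, had 7.10, 7.16, 7.04 and 7.19 with DMSO and 5.63, 5.94, 6.30 and 6.09 with PP242. It fell by 1.13 (SE 0.13, adjusted p = 1.41e-06) with no overlap, and its change was -0.71 with the mean of its probes. The desaturase SCD fell by 0.51. In the list of 17 fatty acid synthesis genes, which holds SREBF1 and SCD, 4 fell in all and 1 rose. Of 17 cholesterol synthesis genes, 2 fell (7 with the block), the isomerase EBP by 0.66 and the sterol carrier STARD4 by 0.81.

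Of 54 genes of lysosomes and autophagy, 3 were higher (5.56%) and 5 lower (9.26%), not far from the shares over all genes (4.43% and 5.78%). With the block 12 were lower, beside 1388 of all 12637 genes. Without the first PP242 or the second DMSO sample 3 were lower. MAP1LC3B, the LC3 protein of autophagosomes, had 7.73, 7.51, 7.34 and 7.49 with DMSO and 8.48, 8.52, 8.03 and 8.08 with PP242. It rose by 0.76 (SE 0.12, adjusted p = 9.9e-05) with no overlap. SQSTM1, the autophagy receptor p62, rose by 0.60 (adjusted p = 0.00266, 0.0961 with median scaling). ATP6V1B2, a subunit of the lysosomal proton pump, fell by 0.64 (SE 0.10) and NPC2, which exports cholesterol from lysosomes, by 0.81 (SE 0.14). BCL2, the inhibitor of apoptosis, rose by 1.06 (SE 0.21) and the stress cytokine GDF15 fell by 1.48 (SE 0.25), in a list of p53 targets and apoptosis genes where 2 of 23 rose and 4 fell.

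Neuronal and sympathoadrenal genes were mixed, with 6 of 36 higher and 5 lower. Beside VGF, the risers were ELAVL4, an RNA-binding protein of neurons (1.03, SE 0.14, adjusted p = 7.11e-06), SCG5, a chaperone of prohormone convertase (0.95, SE 0.16), RET, the receptor of glial neurotrophic factors (0.88, SE 0.13), and 2 other genes. RET had 8.42, 8.59, 8.22 and 8.40 with DMSO and 9.29, 9.32, 9.25 and 9.28 with PP242, so that both groups were tight and apart. SLC18A1, the monoamine transporter of chromaffin granules, fell by 0.95 (SE 0.13) and the neurofilament NEFM by 0.60, and the number of falls was 3 without the third PP242 or the first DMSO sample. Of 12 tubulins, 3 rose, TUBB2A, TUBB3 (1.02, SE 0.19) and TUBB2B (0.63), and 0 fell (5 rose with the block), with the same limit on near-identical copies.

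Of 22 mesenchymal and neural crest genes, 6 fell (10 with the block) and 3 rose. TWIST1, a factor of neural crest and mesenchymal cells, had 10.79, 10.62, 10.93 and 10.44 with DMSO and 9.14, 9.58, 9.39 and 9.27 with PP242. It fell by 1.35 (SE 0.13, adjusted p = 3.22e-08) with no overlap. ID1, an inhibitor of differentiation, fell by 1.33 (SE 0.17), the lectin LGALS1 by 1.02 (SE 0.16) and SOX9 by 0.81, while SOX4, a factor of neuronal precursors, rose by 0.94 (SE 0.14). Of the stromal markers, the matrix protein gene DCN had 8.21, 8.41, 7.36 and 7.82 with DMSO and 5.09, 5.45, 5.56 and 5.50 with PP242, and it fell by 2.55 (SE 0.25, adjusted p = 6.93e-08). ACTA2, smooth muscle actin, fell by 2.03 (SE 0.27), LUM, another matrix protein, by 1.45 and PDGFRB by 1.16. With PP242, LUM was above background on only 2 of 4 arrays and DCN on 3, against all 4 with DMSO. With the mean of its probes the change of DCN was -1.64. The collagen genes COL1A1, COL1A2 and COL3A1 were above background on at most 2 of 4 arrays in either group. The part that such stromal transcripts had in the other results was not tested.

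The effect at 48 h was set beside those at 24 and 72 h, which share no arrays with it. Of the 12637 genes, 1312 rose and 1429 fell with PP242 at 24 h, and 432 rose and 692 fell at 72 h. The counts of list members at those times stand against these totals. Of the 560 genes that rose at 48 h, 326 (58.2%) also rose at 24 h, where they were 24.8% of the risers, and 179 (32%) at 72 h, where they were 41.4%. Of the 731 that fell, 372 (50.9%) also fell at 24 h, 26% of the falls there, and 349 (47.7%) at 72 h, 50.4% of the falls there. Across all 12637 genes, which are not independent replicates, the log2 changes at 48 h correlated with those at 24 h with Pearson's r of 0.542 and with those at 72 h with r of 0.585. The difference of the effects passed for 640 genes (5.06%) between 48 and 24 h and for 76 genes (0.601%) between 72 and 48 h. The first number was 1504 with the block, 408 without the second PP242 sample and 399 without the third DMSO sample of 48 h. The second was 473 with the block and ranged from 2 to 186 in the 8 fits that left out 1 array of 48 h. It became 20, 186 and 4 without the first, the second and the fourth PP242 samples and 2, 49 and 5 without the second, the third and the fourth DMSO samples.

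**Figure D5:**
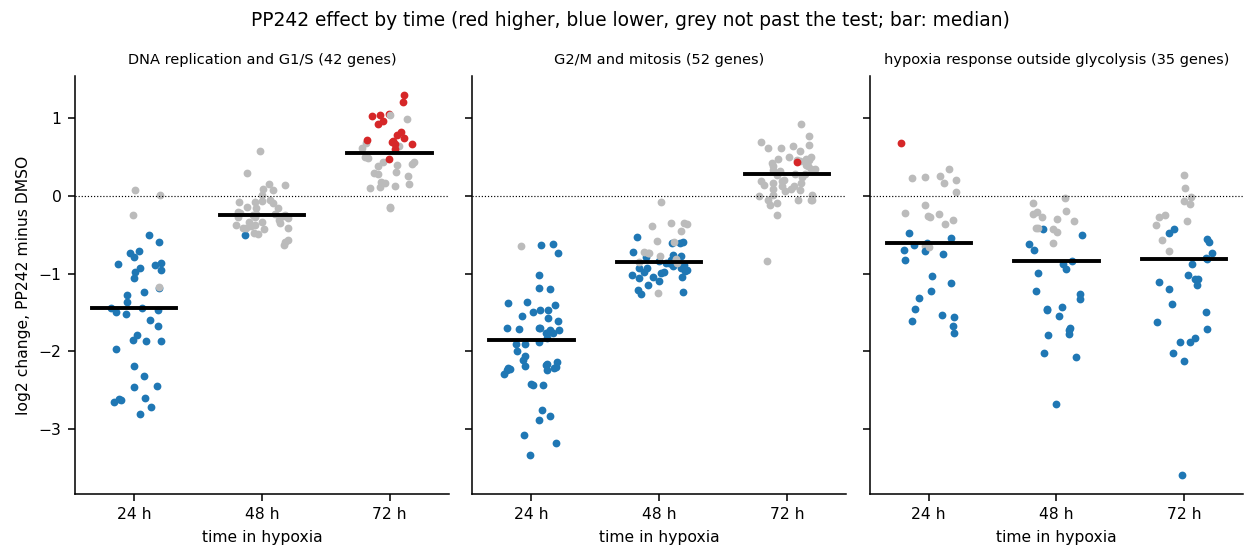
Log2 change, PP242 minus DMSO (vertical axis), at 24, 48 and 72 h in hypoxia (horizontal axis) for 42 replication genes, 52 mitotic genes and 35 hypoxia genes. Points are genes, red higher and blue lower at an adjusted p under 0.05, grey not past the test, and bars are medians. The bars of replication genes go from -1.44 over -0.25 to 0.55 and those of mitotic genes from -1.86 over -0.85 to 0.28, while those of hypoxia genes are at -0.60, -0.83 and -0.82.

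Replication genes differed in their response between 24 and 48 h. FEN1 fell by 2.60 at 24 h, differed by -0.08 at 48 h and rose by 1.29 at 72 h, and its effect at 48 h exceeded that at 24 h by 2.52 (adjusted p = 0.000584). MCM10 went from -2.65 over -0.31 to 1.20, E2F2 from -2.81 over -0.42 to 1.03 and PCNA from -2.61 over -0.28 to 0.99, where the last value missed the threshold (adjusted p = 0.126). Of the 42 replication genes, 38 fell at 24 h (median -1.44), 1 fell at 48 h and 17 rose at 72 h (median 0.55). For 27 of them the effect at 48 h was higher than at 24 h. UHRF1, which maintains DNA methylation, and TK1 also passed, with effects at 48 h that were 2.41 and 2.11 above those at 24 h. Between 72 and 48 h the difference of the effects passed for 3 of the 42 genes, each higher at 72 h. It did not pass for FEN1, MCM10, E2F2 or PCNA (adjusted p = 0.102, 0.0546, 0.102 and 0.389). With the block it passed for FEN1 (0.0191), MCM10 (0.00469) and E2F2 (0.0161).

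Mitotic genes went the same way with time. Of the 52, 51 fell at 24 h (median -1.86), 35 at 48 h (median -0.85) and 0 at 72 h, where 1 rose (median 0.28). PRC1 fell by 2.23 at 24 h and by 1.02 at 48 h, and differed by 0.08 at 72 h. Its effect at 48 h was 1.21 above that at 24 h (adjusted p = 0.0121). CCNB1 fell by 2.21 at 24 h and its effect was 1.25 higher at 48 h (adjusted p = 0.00997). The effect at 48 h was higher than at 24 h for 23 mitotic genes, or 37 with the block, 37 without the first and 15 without the second PP242 sample. It was higher at 72 h than at 48 h for 12 mitotic genes, or 35 with the block, and for 0 without the first or the fourth PP242 or the second or the fourth DMSO sample, 7 without the first DMSO sample and 30 without the second PP242 sample.

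Several stress and hypoxia genes went the other way with time. The effect at 48 h was lower than at 24 h for 5 of 27 ATF4 targets and higher for 3, and it was lower for 5 of the 35 hypoxia genes outside glycolysis and higher for 1. ATF3 was among the higher ones, with a fall of 0.66 at 24 h, a rise of 0.72 at 48 h and a difference of 1.38 (adjusted p = 0.00903). DDIT3 rose by 1.12 at 24 h (SE 0.26, adjusted p = 0.00249) and fell by 2.02 at 48 h, a difference of -3.15 (adjusted p = 6.4e-06). It fell by 2.69 at 72 h. ATF5 rose by 0.87 at 24 h and fell by 2.78 at 72 h, with its effect at 48 h 2.06 below that at 24 h (adjusted p = 0.00422). GDF15 differed by 0.04 at 24 h and fell by 1.48 at 48 h (difference -1.53, adjusted p = 0.015), but the call on the difference was lost with no background correction and with the authors' values. BHLHE40 fell by 0.69, 1.79 and 2.12 at the 3 times, with a difference of -1.10 between 48 and 24 h (adjusted p = 0.00748). EFNA1 rose by 0.67 at 24 h, fell by 0.47 at 48 h and by 1.21 at 72 h, and its effect at 48 h lay 1.14 below that at 24 h (adjusted p = 0.000312). For VEGFA, with changes of -0.31, -1.47 and -1.88, the difference of -1.16 between 48 and 24 h (adjusted p = 0.0269) was lost with median scaling and without the fourth PP242 sample or the first or the third DMSO sample, with adjusted p-values up to 0.0635 when a sample was left out.

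The TXNIP and ARRDC4 pair grew between 24 and 48 h. TXNIP rose by 1.61 at 24 h, 3.07 at 48 h and 3.34 at 72 h, and the effect at 48 h exceeded that at 24 h by 1.46 (adjusted p = 0.0065). ARRDC4 differed by 0.44 at 24 h (adjusted p = 0.068) and rose by 1.42 and 1.28 at the later times, with a difference of 0.97 between 48 and 24 h (adjusted p = 0.0142). TUBB2A differed by -0.27 at 24 h and rose by 1.68 at 48 h and 1.5 at 72 h (difference 1.95, adjusted p = 2.09e-05). Among the stromal genes, ACTA2 differed by -0.04 at 24 h, fell by 2.03 at 48 h and fell by 2.07 at 72 h (difference -1.99, adjusted p = 0.00368), and PDGFRB differed by 0.21 at 24 h and fell by 1.16 at 48 h (difference -1.38, adjusted p = 0.00264).

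Other differences between the times were in genes outside these lists. KCNIP4, a subunit of neuronal potassium channels, rose by 0.66 at 24 h and had 9.22, 9.20, 9.46 and 8.40 with DMSO against 7.55, 7.42, 7.31 and 7.76 with PP242 at 48 h, a fall of 1.56 (SE 0.17). The difference of its effects was -2.22 (adjusted p = 6.71e-06). With the mean of its probes the 48 h change of KCNIP4 was -0.84. ZNF467, a zinc finger gene, rose by 1.22 at 24 h and fell by 0.97 at 48 h and 2.75 at 72 h, so that its effect at 48 h lay below that at 24 h by 2.19 (adjusted p = 1.86e-06) and its effect at 72 h lay 1.78 further below (adjusted p = 5.87e-05). The linker histone gene H1-2 rose by 1.84 at 24 h, differed by -0.29 at 48 h (adjusted p = 0.306) and fell by 1.20 at 72 h. Among the genes named, ZNF467 was the one whose difference between 72 and 48 h held in all 8 fits that left out 1 array. MT1X, a metal-binding metallothionein, differed by -0.33 at 48 h (adjusted p = 0.636) and fell by 2.46 at 72 h, and 0 of 7 metallothioneins passed at 48 h while 6 fell at 72 h.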

How the data were processed

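Signals of 27 Illumina bead arrays were analysed. The deposited table lists the linear signal intensity of 48107 probes on each array, in whole numbers and without detection p-values. A second deposited table covers 27367 of them with intensity values, quantile normalized by the authors as far as a recomputation shows (within 2.12%), and served as an alternative. The software that read the arrays is not given in the sources used here.

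Signals were background corrected by normexp (offset 16), log2 transformed and quantile normalized. Because the tables hold no detection p-values, which the plan had assumed, each array's background was taken from the mode of its signals and their spread below it. A probe entered if 3 or more arrays had it above that background at p under 0.05 (31241 probes did), and for each of 12637 genes the brightest such probe on average was used (9678 genes had 1 probe). Symbols came from the platform annotation, and 23495 probes of the second table had 1 symbol, 1 had several and 3871 had none. All 7 groups were fitted in 1 linear model with limma 3.58.1 in R 4.3.3, with Benjamini-Hochberg adjustment over all genes at 0.05. SE is the moderated standard error. The fits were tested on simulated data. The number of arrays limits the precision, and no level is set against that of another probe.

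The comparison, the 34 gene lists (from textbook knowledge, some sharing genes), the tests and the rule for named genes were chosen with earlier results of these data known, and none is independent support. The rule takes the HIF genes EPAS1, HIF1A and ARNT, the genes MTOR, RPTOR, RICTOR and DDIT4, VEGFA and MYCN, the 12 largest rises and 12 largest falls without overlap between groups (leaving out symbols that begin with LOC or contain orf), up to 6 members of each list with the smallest p plus the called member that goes farthest against the list's median, all measured mTOR pathway genes and HIF regulators, and the 5 largest differences each way between times. The text gives 112 of these genes. A few other genes are named as markers, for which the text states whether they were above background.

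The labels number samples 1 to 4 in each group. After removal of group means, samples of the same number correlated across genes with r between 0.206 and 0.42, and samples of different numbers with r between -0.394 and 0.266. The numbers were taken to pair the samples because all 4 same-number values exceed 0.1, a mark that different-number values of up to 0.266 also pass. Of 8 samples, 6 and not all correlated best with their own number. The pairing is thus uncertain, and the calls reported are those of the fit without the block. The fit with the number as a block is given where it changes a 48 h call or moves a count of 48 h calls by more than 1.5 times. For the differences between times it is given for the totals, for the mitotic genes and for some single genes. The other alternatives were the offset, no background correction, median scaling, 2 other filters on dim probes, the mean of a gene's probes, a fit of the 8 arrays alone, a trend in the prior variance, array weights, the authors' values and leaving out each array of 48 h.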

Additional observations from a re-analysis of the deposited data

Results flagged for a closer look

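On 11 occasions among 224 gene and group combinations, 1 of the 4 arrays of a group lay far from the rest of its group. Chance alone gives such a case in about 1 of 20 combinations, so the number found is about what chance gives. The array lay below the rest of its group for VEGFA (9.87 on the fourth DMSO array), MYCN (14.01 on the third DMSO array), COX4I2 (7.86 on the fourth DMSO array), KLF6 (8.95 on the third DMSO array), IGFBP5 (6.25 on the first PP242 array), MTHFD2 (10.18 on the fourth DMSO array), EIF3D (11.45 on the second PP242 array) and H1-2 (9.42 on the fourth DMSO array). It lay above the rest for NEK2 (9.71 on the second DMSO array), LGALS1 (10.47 on the second PP242 array) and PDGFRB (8.44 on the fourth PP242 array).

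The effect of PP242 differed between 48 and 24 h at an adjusted p under 0.05 in limma for 39 of the genes named, by the test of the difference itself. The log2 change was higher at 48 h for FEN1 (2.52), UHRF1 (2.41), E2F2 (2.39), MCM10 (2.35), PCNA (2.34), TK1 (2.11), TUBB2A (1.95), TXNIP (1.46), ATF3 (1.38), CCNB1 (1.25), PRC1 (1.21), AURKA (1.18), VGF (1.10), ARRDC4 (0.97), FANCG (0.89) and SQSTM1 (0.70). It was lower at 48 h for DDIT3 (-3.15), KCNIP4 (-2.22), ZNF467 (-2.19), H1-2 (-2.12), ATF5 (-2.06), ACTA2 (-1.99), GDF15 (-1.53), S100A4 (-1.49), NELL1 (-1.48), PDE4C (-1.45), PDGFRB (-1.38), TRIB3 (-1.27), LGALS1 (-1.27), VEGFA (-1.16), EFNA1 (-1.14), BHLHE40 (-1.10), IGFBP5 (-1.08), IGFBP4 (-1.02), NPC2 (-0.85), COX4I2 (-0.79), SLC18A1 (-0.77), EGFR (-0.74) and TWIST1 (-0.73). Between 72 and 48 h, it differed for 8 of the genes, and it was higher at 72 h for AURKA (1.40), CCNB1 (1.29), FANCG (1.00) and KIF2C (0.96) and lower for MT1X (-2.14), ZNF467 (-1.78), RPL37 (-1.27) and EFNA1 (-0.73). The calls of 9 of the first genes were lost in at least 1 of the 8 fits that left out an array of 48 h, with the highest adjusted p without the first DMSO array for COX4I2 (0.0874), IGFBP5 (0.0562), TRIB3 (0.0605), VEGFA (0.0635), without the second DMSO array for EGFR (0.0639), without the third DMSO array for TWIST1 (0.0541), VGF (0.0691), without the second PP242 array for AURKA (0.0736), SQSTM1 (0.0826). For the later pair of times, 7 calls were lost in the same way, with the highest adjusted p without the fourth DMSO array for AURKA (0.0869), CCNB1 (0.0869), FANCG (0.0802), KIF2C (0.081), MT1X (0.0929), RPL37 (0.11), without the first PP242 array for EFNA1 (0.091), so that ZNF467 was the one of the 8 that passed in all 8 fits. Other settings also ended calls between 48 and 24 h. Median scaling did so for S100A4, NPC2, SLC18A1, COX4I2, EGFR, IGFBP5, TWIST1 and VEGFA, no background correction for GDF15, the authors' values for GDF15 and VGF, the mean of a gene's probes for PCNA and no filter on dim probes for COX4I2. Between 72 and 48 h, median scaling did so for EFNA1, RPL37 and MT1X, and the mean of probes for EFNA1 and RPL37. The causes were not tested.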

How the results depend on the processing

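No called 48 h change among the 112 genes turned its sign under an alternative that gave a value. The changes of ARNT (-0.05 to 0.03), FEN1 (-0.27 to 0.23), MT1X (-0.68 to 0.08), MYCN (-0.05 to 0.11) and UHRF1 (-0.44 to 0.04), none of them called, lay on both sides of 0. With the trend in the prior variance and with no filter on dim probes each gene also kept its side of the threshold. Genes called were 884 to 1431 under the alternatives other than the block, of which 853 to 1276 were among the 1291 of the fit reported, and 903 to 1373 when 1 array was left out. The replicate block called 2506 genes, 1118 higher and 1388 lower, and median scaling called 236 higher genes. The block gave 1504 differences between 48 and 24 h, 473 between 72 and 48 h, and 2988 genes for DMSO at 48 h against the control. Under the block the 48 h change of 4 of the 112 genes newly passed and no call was lost. It gave 5 replication genes lower, 37 mitotic genes with a higher effect at 48 h than at 24 h and 35 with a higher effect at 72 h than at 48 h. The count of differences between 72 and 48 h was 127 with an offset of 50, 124 with no background correction, 48 with median scaling, 158 with array weights and 144 with the authors' values. Array weights gave 1144 differences between 48 and 24 h, and 36 and 22 mitotic genes in those 2 steps. Leaving out 1 array gave 399 to 747 differences between 48 and 24 h and 2 to 186 between 72 and 48 h, 17 to 42 mitotic genes lower at 48 h, 15 to 37 and 0 to 30 mitotic genes in the 2 steps, 0 to 1 replication genes lower and 8 to 11 immediate early genes higher. Replication genes lower were 2 with median scaling and 0 with the mean of a gene's probes or with the 8 arrays alone, and immediate early genes higher were 7 with median scaling and 8 with the 8 arrays alone. The median change of immediate early genes was 0.31 with an offset of 50, 0.27 with no background correction, 0.29 with the authors' values and 0.34 to 0.49 when 1 array was left out. That of hypoxia genes was -0.66 with no background correction, -0.64 with the authors' values and -0.91 to -0.67 when 1 array was left out. With median scaling the medians of fatty acid synthesis (-0.0801) and of MYC targets (-0.0067) changed sign. Fewer arrays entered the fits with the 8 arrays alone or without 1 array, and the cause of the other changes was not tested. The size of called changes depended on the processing. For 28 of the 96 called genes it was smaller by over 1.5 times under at least 1 alternative, 21 with the authors' values, 19 with no background correction, 9 with the mean of a gene's probes, 6 with an offset of 50 and 1 without the second PP242 sample. With the authors' values the changes were -1.55 for HTR3A, -0.63 for PGF, -0.67 for LUM, -0.65 for GDF15 and -0.31 for SOX9. With the mean of probes they were -1.18 for HTR3A, 0.61 for RPL37, -0.92 for PFKFB3, -0.84 for KCNIP4 and 0.39 for SPRY4. For NAV2 (0.90), DCN (-1.64), SREBF1 (-0.71) and EFNA1 (-0.31) the mean of probes also gave smaller changes. Signals near background, such as those of RICTOR and PDE4C, limit what the arrays show for dim genes.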
